A study of Mus musculus with 6 samples.

Results

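The 10 genes described here are Acta2, Tagln, Myh11, Cnn1, Mylk, Rgs5, Pdgfrb, Abcc9, Notch3 and Cspg4, which mark smooth muscle cells and pericytes, the mural cells that wrap blood vessels. They were chosen by name, and all 10 are among the 14956 genes of the deposited table. Poly(A) RNA was sequenced from the hearts of 3 heterozygous mice (Otub1 +/-, Het below), in which 1 of the Otub1 copies is disrupted, and of 3 wild-type mice (Otub1 +/+, WT below). Every mouse, of either genotype, had been given doxorubicin, an anthracycline chemotherapy drug that injures the heart, in 6 injections spread over 2 weeks. All hearts compared here were treated, so a value describes a genotype under the drug. Each library is 1 mouse, named Het 1 to Het 3 and WT 1 to WT 3. The sources used here do not give strain, age, sex or the design of the Otub1 allele. The comparison asked how hearts with less OTUB1, a deubiquitinase, differ under doxorubicin.

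Vascular smooth muscle cells surround arteries and contract when calcium-activated myosin light chain kinase lets smooth muscle myosin pull on smooth muscle actin. The genes of this contractile apparatus are switched on together by serum response factor and its coactivators of the myocardin family. Pericytes line capillaries, are kept there by PDGF-B from the endothelium acting on the receptor PDGFRB, and carry less of the contractile apparatus. The heart is rich in both, and bulk RNA counts them together with cardiomyocytes, endothelium and fibroblasts. In bulk RNA, fewer cells of a type and less RNA per cell cannot be told apart.

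Expression was given in FPKM, a fragment count scaled to transcript length and library size, so levels can be compared between genes. The number of reads behind a value is unknown. Otub1 measured 4.83, 6.48 and 6.65 FPKM in Het 1, 2 and 3, against 15.4, 14.9 and 14.2 FPKM in WT 1, 2 and 3, and the groups did not overlap, as their labels have it. Genes whose mean over the hearts reached 1 FPKM entered limma's test on log2(FPKM + 1), and a gene was called at a Benjamini-Hochberg adjusted p under 0.05. Of 11096 tested genes 2 were called, 0 higher and 2 lower in Het, and Otub1 had an adjusted p of 0.376. The count lay between 1 and 38 when single libraries were left out, at 8 without Het 1, 25 without Het 2, 38 without Het 3 and 1 without any single WT library. Het 1 stood apart, with correlations of 0.844 to 0.887 with the other libraries over tested genes. It also had 65.0% of its summed FPKM in mitochondrial genes, against 51.5% to 56.1% in the other 5 hearts. On the log2(FPKM + 1) scale the median tested gene differed from its WT mean by −0.45, −0.03 and −0.04 in Het 1, 2 and 3. Differences called relative below have that median subtracted. Het 3 held transcripts of lung epithelium, and every Het heart held fewer transcripts of hepatocyte markers than every WT heart. The cardiomyocyte markers were high in all 6 hearts, as heart tissue should show.

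None of the smooth muscle and pericyte genes was called as different between Het and WT hearts, and the widest departures from the WT mean were those of 1 animal, Het 1. In Het 1 the contractile genes Tagln, Myh11 and Cnn1 were 4.32 to 7.17 times the WT mean. The contractile genes Acta2 and Mylk were only 1.44 and 1.15 times the WT mean there, or 0.97 and 0.61 on the relative log2 scale. The pericyte genes Rgs5, Pdgfrb, Notch3 and Cspg4 were 0.704 to 0.923 times and Abcc9 0.281 times the WT mean in Het 1. The median gene of Het 1 was itself shifted, and on the relative log2 scale Rgs5, Pdgfrb, Notch3 and Cspg4 were at −0.04, 0.24, 0.06 and 0.38, near or above the median gene, and Abcc9 was at −1.27. In Het 2 and Het 3 Tagln and Myh11 lay near the lowest WT heart. Of the 10 genes 9 reached the filter and were tested, and Cnn1, at a mean of 0.826 FPKM, did not. Of the 9, 0 passed at an adjusted p under 0.05 (0.018% of all tested genes did) and 0 had an unadjusted p under 0.05 (3.88% of all tested genes did). In 0 of the 9 did the 3 Het values lie wholly outside the 3 WT values, against 17.4% of all tested genes. The median log2 fold change of the 9 was −0.09, against −0.18 over all tested genes. Among the 9, 3 were highest in Het 1 (18.1% of all tested genes were) and 4 were lowest in Het 1 (65.1% of all tested genes were). Acta2, Tagln, Mylk and Cspg4, 4 of the 9, were lowest in Het 2, where 7.62% of all tested genes were lowest. Relative to all genes, Tagln and Myh11 were at least 2-fold above the WT mean in Het 1, as 8.92% of all tested genes were, and Abcc9 was at least 2-fold below it, as 8.17% were. The authors' deposited table also lists 0 of the 10 genes with an adjusted or unadjusted p under 0.05, where 152 genes have such an adjusted p. Its log2 fold changes of mean FPKM were 1.53 for Cnn1, 1.27 for Tagln and 0.93 for Myh11, with adjusted p-values of 0.737, 0.744 and 0.809.

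The order of levels was led by a pericyte gene. In WT hearts Rgs5 was highest at 112 ± 7.16 FPKM, followed by Acta2 at 53.5 ± 1.27, Abcc9 at 36.7 ± 5.16 and Pdgfrb at 14.7 ± 1.05 FPKM (SD, n = 3). Next came Notch3 at 6.51 ± 0.283, Tagln at 5.36 ± 1.58 and Myh11 at 4.23 ± 1.42 FPKM (SD, n = 3). Lowest were Mylk at 2.74 ± 0.367, Cspg4 at 2.10 ± 0.239 and Cnn1 at 0.425 ± 0.220 FPKM (SD, n = 3). Neighbours in this order had WT values that did not overlap, except for Notch3 with Tagln, Tagln with Myh11 and Myh11 with Mylk. By its mean over the 6 hearts Rgs5 ranked 230 of 14956 genes and Cnn1 ranked 11687.

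**Figure D1:**
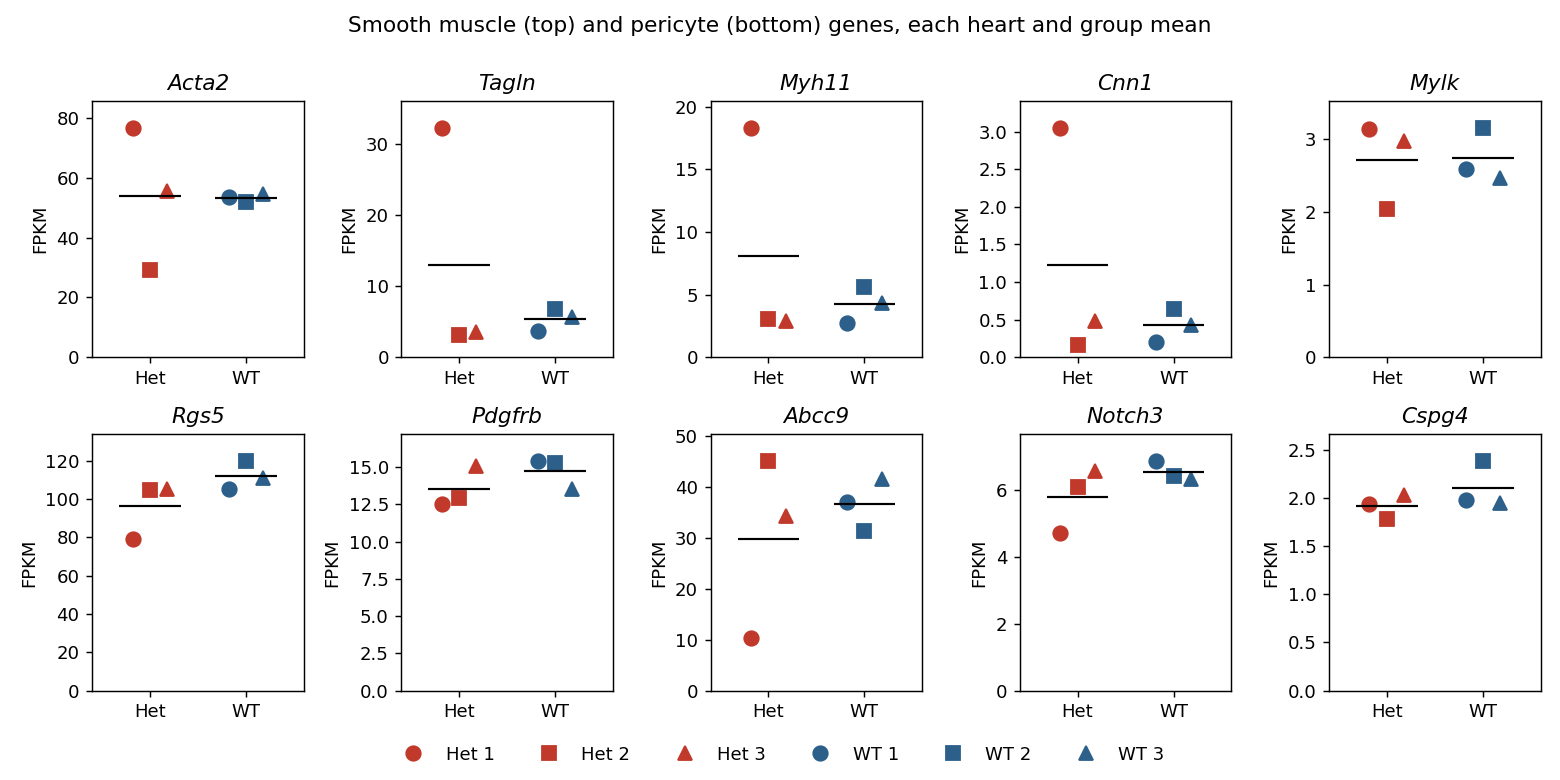
FPKM (vertical axis, from 0, separate scale per gene) of the 10 genes in the 3 Het hearts (red, left) and the 3 WT hearts (blue, right), with smooth muscle genes in the top row, pericyte genes in the bottom row and a black line at each group mean. Tagln reaches 32.2 FPKM in Het 1 and at most 6.77 FPKM in any other heart, and Abcc9, 10.3 FPKM in Het 1, is never under 31.4 FPKM elsewhere.

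Tagln encodes transgelin (SM22), an actin-binding protein of smooth muscle and an early mark of its differentiation. It lies on chromosome 9, 45929619 to 45936058, minus strand (GRCm38, as are all coordinates here). Tagln stood at 32.2, 3.07 and 3.56 FPKM in Het 1, 2 and 3, against 3.65, 6.77 and 5.67 FPKM in WT 1, 2 and 3. Het 1 was above every other heart, while Het 2 and Het 3 were below every WT heart. The log2 fold change was 0.45 (SE 0.80, 95% confidence interval −1.47 to 2.37, adjusted p 0.816 in limma's test). Without Het 1 it was −0.53 (unadjusted p 0.0497, adjusted p 0.404 in limma's test). In that fit 1373 of 11096 genes had an unadjusted p under 0.05, against 431 with all 6 hearts. Gm48529 and Pcsk7, both on the opposite strand, share 1241 and 108 exon bases with Tagln in GENCODE M21. Gm48529 measured 4.29, 1.03 and 1.53 FPKM in Het 1, 2 and 3, against 1.29, 1.71 and 1.40 FPKM in WT 1, 2 and 3, so it too was highest in Het 1. The library kit marks strand, but no source states that quantification used it, so reads of the pair cannot be told apart.

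Myh11 encodes the smooth muscle myosin heavy chain, the motor of contraction and the marker most specific to smooth muscle (chromosome 16, 14194535 to 14291372, minus strand). Its levels were 18.3, 3.02 and 2.92 FPKM in Het 1, 2 and 3, against 2.75, 5.58 and 4.36 FPKM in WT 1, 2 and 3. As with Tagln, Het 1 was highest, and the other Het hearts lay between WT 1 and WT 3. The log2 fold change was 0.40 (SE 0.64, 95% confidence interval −1.13 to 1.92, adjusted p 0.797 in limma's test), and −0.36 without Het 1.

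Cnn1 encodes calponin, a regulator that binds actin and slows myosin in smooth muscle (chromosome 9, 22099216 to 22109630, plus strand). It was the lowest of the 10 genes, at 3.05, 0.157 and 0.475 FPKM in Het 1, 2 and 3, against 0.203, 0.643 and 0.428 FPKM in WT 1, 2 and 3. Only Het 1 exceeded 1 FPKM, and the other 5 hearts did not separate by genotype. Tested with no filter on low values, its log2 fold change was 0.43 (SE 0.44, 95% confidence interval −0.62 to 1.48, adjusted p 0.776 in limma's test).

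Tagln, Myh11 and Cnn1 also kept a common order among the WT hearts. Each was lowest in WT 1, intermediate in WT 3 and highest in WT 2. That order held for 13.4% of all tested genes, and Rgs5 was the fourth of the 10 genes to show it. The ratio of Myh11 to Tagln FPKM lay between 0.567 and 0.985 in the 6 hearts, while Tagln over Rgs5 was 0.409, 0.0293 and 0.0338 in Het 1, 2 and 3, against 0.0347, 0.0567 and 0.0510 in WT 1, 2 and 3. The Myh11 to Tagln ratio varied less over these libraries than the Tagln to Rgs5 ratio. Cnn1 over Tagln spanned 0.0513 to 0.133, and Pdgfrb over Rgs5 spanned 0.122 to 0.159. Tagln, Myh11 and Cnn1 were grouped after their values were seen, so these ratios are no test of a link between them.

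Acta2 encodes smooth muscle alpha-actin, the thin filament protein of smooth muscle, and is also made by some pericytes and by activated fibroblasts (chromosome 19, 34241090 to 34255590, minus strand). Its levels were 76.7, 29.2 and 55.6 FPKM in Het 1, 2 and 3, against 53.7, 52.1 and 54.6 FPKM in WT 1, 2 and 3. The WT hearts agreed within a narrow range, Het 1 was above it, Het 2 below it and Het 3 just above it. The group means were 53.8 ± 23.8 FPKM in Het and 53.5 ± 1.27 FPKM in WT (SD, n = 3 each). The Het hearts thus spread widely around a mean close to that of WT. The log2 fold change was −0.09 (SE 0.37, 95% confidence interval −0.98 to 0.79, adjusted p 0.914 in limma's test), and it was 0.28 without Het 2. Acta2 did not follow the WT order of Tagln, Myh11 and Cnn1. In Het 1 it was 1.44 times the WT mean, while Tagln was 6.01 times its own. Its transcript shares no 50-base window with the cardiac actin Actc1 in GENCODE M21, although the proteins are close relatives.

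Mylk encodes myosin light chain kinase, the enzyme that starts smooth muscle contraction by phosphorylating the myosin light chain (chromosome 16, 34745210 to 35002420, plus strand). Levels were 3.14, 2.04 and 2.97 FPKM in Het 1, 2 and 3, against 2.59, 3.15 and 2.46 FPKM in WT 1, 2 and 3. The highest value was in WT 2 and the lowest in Het 2, so the groups overlapped. Its log2 fold change was −0.02 (SE 0.17, 95% confidence interval −0.42 to 0.39, adjusted p 0.968 in limma's test). The gene makes long and short kinases, which the gene-level values do not separate, and E130310I04Rik on the opposite strand shares 548 exon bases with it.

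Promoter sequence was available for 7 of the 10 genes, in RefSeq windows on GRCm38.p6 of 250 bases before to 50 bases after a start site, and not for Tagln, Myh11 or Pdgfrb. Acta2, Cnn1 and Rgs5 are shown to set a contractile gene at 1.44 times the WT mean in Het 1 beside one at 7.17 times and beside the leading pericyte gene. Capitals mark matches to the CArG box, the motif of serum response factor, allowing 1 base other than A or T in its core. The windows are chr19:34255324-34255623 on the minus strand for Acta2, chr9:22099003-22099302 on the plus strand for Cnn1 and chr1:169655251-169655550 on the plus strand for Rgs5, each written 5′ to 3′ along the gene.
Acta2: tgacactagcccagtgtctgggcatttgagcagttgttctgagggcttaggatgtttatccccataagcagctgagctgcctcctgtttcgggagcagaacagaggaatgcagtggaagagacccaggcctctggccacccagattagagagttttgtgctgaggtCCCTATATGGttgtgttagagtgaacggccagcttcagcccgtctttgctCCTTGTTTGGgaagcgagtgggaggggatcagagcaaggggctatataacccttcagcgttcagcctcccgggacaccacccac
Cnn1: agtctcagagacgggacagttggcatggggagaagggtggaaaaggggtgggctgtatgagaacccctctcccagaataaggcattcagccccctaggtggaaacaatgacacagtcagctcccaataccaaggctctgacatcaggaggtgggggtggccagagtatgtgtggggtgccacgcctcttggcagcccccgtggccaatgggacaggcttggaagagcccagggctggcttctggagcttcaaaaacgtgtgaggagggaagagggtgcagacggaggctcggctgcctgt
Rgs5: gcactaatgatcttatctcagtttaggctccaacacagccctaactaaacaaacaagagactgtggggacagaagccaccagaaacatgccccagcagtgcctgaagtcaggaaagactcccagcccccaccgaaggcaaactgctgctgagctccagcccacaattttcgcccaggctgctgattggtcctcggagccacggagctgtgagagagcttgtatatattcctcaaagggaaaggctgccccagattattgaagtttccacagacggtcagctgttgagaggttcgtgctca

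The Acta2 window held 2 such matches, the first bases of which lie 84 and 34 bases before the annotated start. Neither is an exact CArG box. No match, exact or with 1 other base, was in the windows of Cnn1, Mylk, Rgs5, Abcc9, Notch3 or Cspg4. The Mylk window, chr16:34784700-34784999, lies inside the gene, which begins at 34745210, so sequence at the gene's first annotated base was not searched. An exact CArG box was present in 1.63% of all 32851 promoter windows, and one with at most 1 other base in 9.98%. The CArG motif is its own reverse complement, so each match was counted once. The exact letters TATAAA, a form of the TATA box, were in none of the 7 windows and in 13.6% of all windows. Other forms of the TATA box were not searched. TGGGAA, the letters bound by the Notch effector RBPJ, was found on either strand in Acta2 and Abcc9 and in 25.6% of all windows, and in Acta2 it overlapped the second CArG-like match. CATTCC, the letters bound by TEAD factors, was found in Acta2, Abcc9 and Mylk and in 14.7% of all windows, and in Abcc9 it overlapped TGGGAA. Not every other contractile gene had a window. Among those that did, Myl9, Myl6 and Vcl had an exact CArG box in a window, though Myl6 did not have it in every window. Myl9 and Myl6 were highest in Het 1 (18.1% of all tested genes were) and Vcl was lowest there (65.1% were). A match is a run of letters and not a shown binding site, and introns and distant sequence were not searched.

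Rgs5 encodes a regulator of G-protein signalling and is the classic marker of pericytes (chromosome 1, 169655501 to 169695813, plus strand). Its levels were 78.9, 104.5 and 105.3 FPKM in Het 1, 2 and 3, against 105.3, 119.5 and 111.1 FPKM in WT 1, 2 and 3. Het 2 and Het 3 were next to the lowest WT heart, and Het 1 was lowest. Relative to all genes its log2 differences from the WT mean were −0.04, −0.07 and −0.04 in Het 1, 2 and 3, so Rgs5 stood where the median gene of each library stood. The log2 fold change was −0.23 (SE 0.24, 95% confidence interval −0.80 to 0.34, adjusted p 0.754 in limma's test), or −0.05 relative to all genes.

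Pdgfrb encodes the receptor through which PDGF-B recruits and keeps mural cells (chromosome 18, 61045150 to 61085061, plus strand), and it is also expressed in fibroblasts. Levels were 12.6, 12.9 and 15.1 FPKM in Het 1, 2 and 3, against 15.4, 15.3 and 13.5 FPKM in WT 1, 2 and 3. Het 3 lay within the WT range and the other Het hearts just under it. Between the groups the log2 fold change was −0.12 (SE 0.18, 95% confidence interval −0.55 to 0.32, adjusted p 0.792 in limma's test).

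Notch3 encodes the Notch receptor of mural cells, which promotes their maturation and is mutated in a hereditary small vessel disease (chromosome 17, 32120820 to 32166852, minus strand). Levels were 4.72, 6.06 and 6.56 FPKM in Het 1, 2 and 3, against 6.84, 6.39 and 6.31 FPKM in WT 1, 2 and 3. Het 1 was lowest and Het 3 lay within the WT range. For the comparison of groups the log2 fold change was −0.16 (SE 0.17, 95% confidence interval −0.57 to 0.25, adjusted p 0.756 in limma's test), or 0.02 relative to all genes. Gm17276 on the opposite strand shares 488 exon bases with Notch3 and was listed at 0.164 to 1.04 FPKM over the 6 hearts.

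Cspg4 encodes the proteoglycan NG2 on the pericyte surface (chromosome 9, 56865033 to 56899870, plus strand). It varied least of the 10 genes over the Het hearts, at 1.94, 1.78 and 2.03 FPKM in Het 1, 2 and 3, against 1.98, 2.38 and 1.95 FPKM in WT 1, 2 and 3. The ranges of the genotypes overlapped. Cspg4 had a log2 fold change of −0.09 (SE 0.12, 95% confidence interval −0.38 to 0.21, adjusted p 0.780 in limma's test). That interval is the narrowest of the 9.

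Abcc9 encodes SUR2, the sulfonylurea receptor subunit of potassium channels that open when ATP is low (chromosome 6, 142587862 to 142702315, minus strand). In pericytes SUR2 pairs with the pore subunit encoded by Kcnj8, and cardiomyocytes use a splice form of SUR2 as well. Levels were 10.3, 45.1 and 34.3 FPKM in Het 1, 2 and 3, against 37.2, 31.4 and 41.7 FPKM in WT 1, 2 and 3. Het 1 held 28.1% of the WT mean, Het 2 was above every WT heart and Het 3 lay among them. Abcc9 was the one pericyte gene of the 10 far below the median gene in Het 1, at −1.27 on the relative log2 scale. Its log2 fold change was −0.51 (SE 0.53, 95% confidence interval −1.77 to 0.75, adjusted p 0.754 in limma's test), and 0.10 without Het 1. Kcnj8 measured 10.4, 13.8 and 13.4 FPKM in Het 1, 2 and 3, against 14.6, 15.5 and 14.03 FPKM in WT 1, 2 and 3. The Abcc9 to Kcnj8 FPKM ratios were therefore 0.991, 3.27 and 2.56 in Het 1, 2 and 3, against 2.54, 2.02 and 2.97 in WT 1, 2 and 3.

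**Figure D2:**
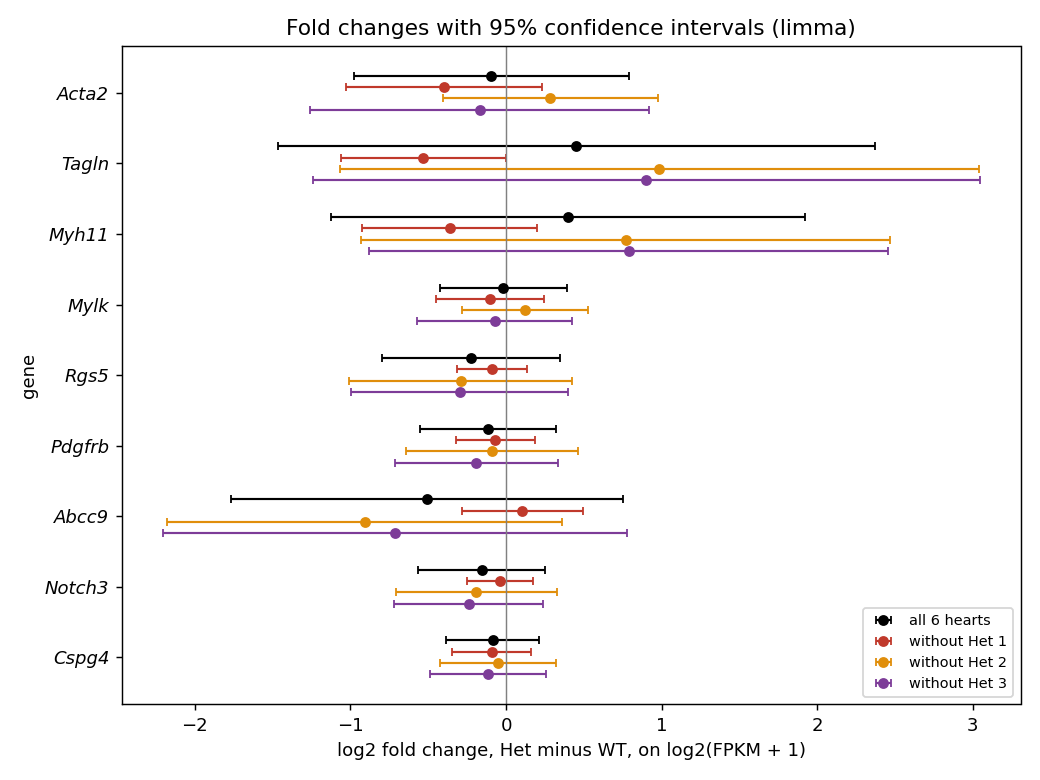
Log2 fold change, Het minus WT, on log2(FPKM + 1) (horizontal axis) for the 9 tested genes, with 95% confidence intervals from limma, for all 6 hearts and with each Het heart left out. The intervals of Tagln and Myh11 are the widest with all hearts, and their estimates change sign without Het 1, to −0.53 and −0.36.

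Among other genes listed for smooth muscle Het 1 held both high and low values, and bulk RNA does not show which cells they came from. Of a list of 30 further contractile and cytoskeletal genes 28 were in the table and 23 were tested. None was called (0.018% of all tested genes were) and 0 had an unadjusted p under 0.05 (3.88% did). Of the 23, 1 was higher in every Het heart (1.83% of all tested genes were) and 3 were lower in every Het heart (15.6% of all tested genes were). The first was Cacna1c, the L-type calcium channel of smooth and cardiac muscle, with 14.4, 14.8 and 15.5 FPKM in Het 1, 2 and 3, against 13.9, 11.7 and 11.3 FPKM in WT 1, 2 and 3, and the others were Tpm1, Rhoa and Smtn. Cacna1c and Tpm1 were chosen after their values were seen. The median log2 fold change was −0.19, against −0.18 over all tested genes. Het 1 was highest for 9 of the 23 (18.1% of all tested genes were) and lowest for 9 (65.1% of all tested genes were). In Het 1, 5 of the 23 were at least 2-fold above the WT mean relative to all genes, against 8.92% of all tested genes. They were Myl9, Tpm2, Sncg, Ppp1r14a and Mustn1, and Ppp1r12b, a myosin phosphatase subunit, was the 1 gene at least 2-fold below. Myl9, the regulatory light chain of smooth muscle myosin, stood at 70.5, 8.35 and 11.4 FPKM in Het 1, 2 and 3, against 11.8, 16.9 and 16.0 FPKM in WT 1, 2 and 3. Tpm2, the beta-tropomyosin of smooth and slow muscle, stood at 19.1, 3.04 and 4.42 FPKM in Het 1, 2 and 3, against 4.56, 6.59 and 4.94 FPKM in WT 1, 2 and 3. As for Tagln, Het 1 was far above the rest and the other Het hearts lay below all WT hearts. Apart from Ppp1r14a these genes were chosen after their values were seen.

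Of the 5 listed genes below the filter, Actg2, Lmod1 and Map3k7cl were highest in Het 1, and Itga8 and Npnt were highest in Het 3. Actg2, the enteric smooth muscle actin, measured 1.96 FPKM in Het 1, where no other heart exceeded 0.487 FPKM. Lmod1, a leiomodin that nucleates actin filaments, measured 1.74 FPKM in Het 1 and spanned 0.346 to 0.922 FPKM elsewhere. Itga8, an integrin of smooth muscle, measured 0.825, 0.471 and 1.31 FPKM in Het 1, 2 and 3, against 0.320 to 0.547 FPKM in WT. These genes were not tested and were chosen after their values were seen. The 9 tested genes that were lowest in Het 1 were Des, Ppp1r12b, Rhoa, Rock1, Rock2, Smtn, Synpo2, Tpm1 and Vcl. They spanned 28.3% (Synpo2) to 89.6% (Rock1) of the WT mean there, where the summed cardiomyocyte markers were at 43.0%. Tpm1 and Des averaged 946 and 355 FPKM in WT, against 53.5 FPKM for Acta2. The part of cardiomyocytes in these values was not tested.

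By the smallest unadjusted p, the leading genes of the list were Smtn, Pdlim3, Rhoa and Ppp1r14a. Smtn, whose product smoothelin binds actin in contractile smooth muscle, was lower in all Het hearts and averaged 38.4 ± 7.17 FPKM in Het and 56.6 ± 5.86 FPKM in WT (SD, n = 3 each). Rhoa, the GTPase that sensitises contraction to calcium, was also lower in all Het hearts and averaged 19.8 ± 6.04 FPKM in Het and 27.2 ± 0.326 FPKM in WT (SD, n = 3 each). Pdlim3, an actin-associated scaffold, averaged 2.12 ± 0.379 FPKM in Het and 2.75 ± 0.259 FPKM in WT. Ppp1r14a, the inhibitor CPI-17 of myosin phosphatase, averaged 2.01 ± 0.931 FPKM in Het and 1.17 ± 0.246 FPKM in WT (SD, n = 3 each). In limma's test the 4 genes had an adjusted p of 0.753 each.

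**Figure D3:**
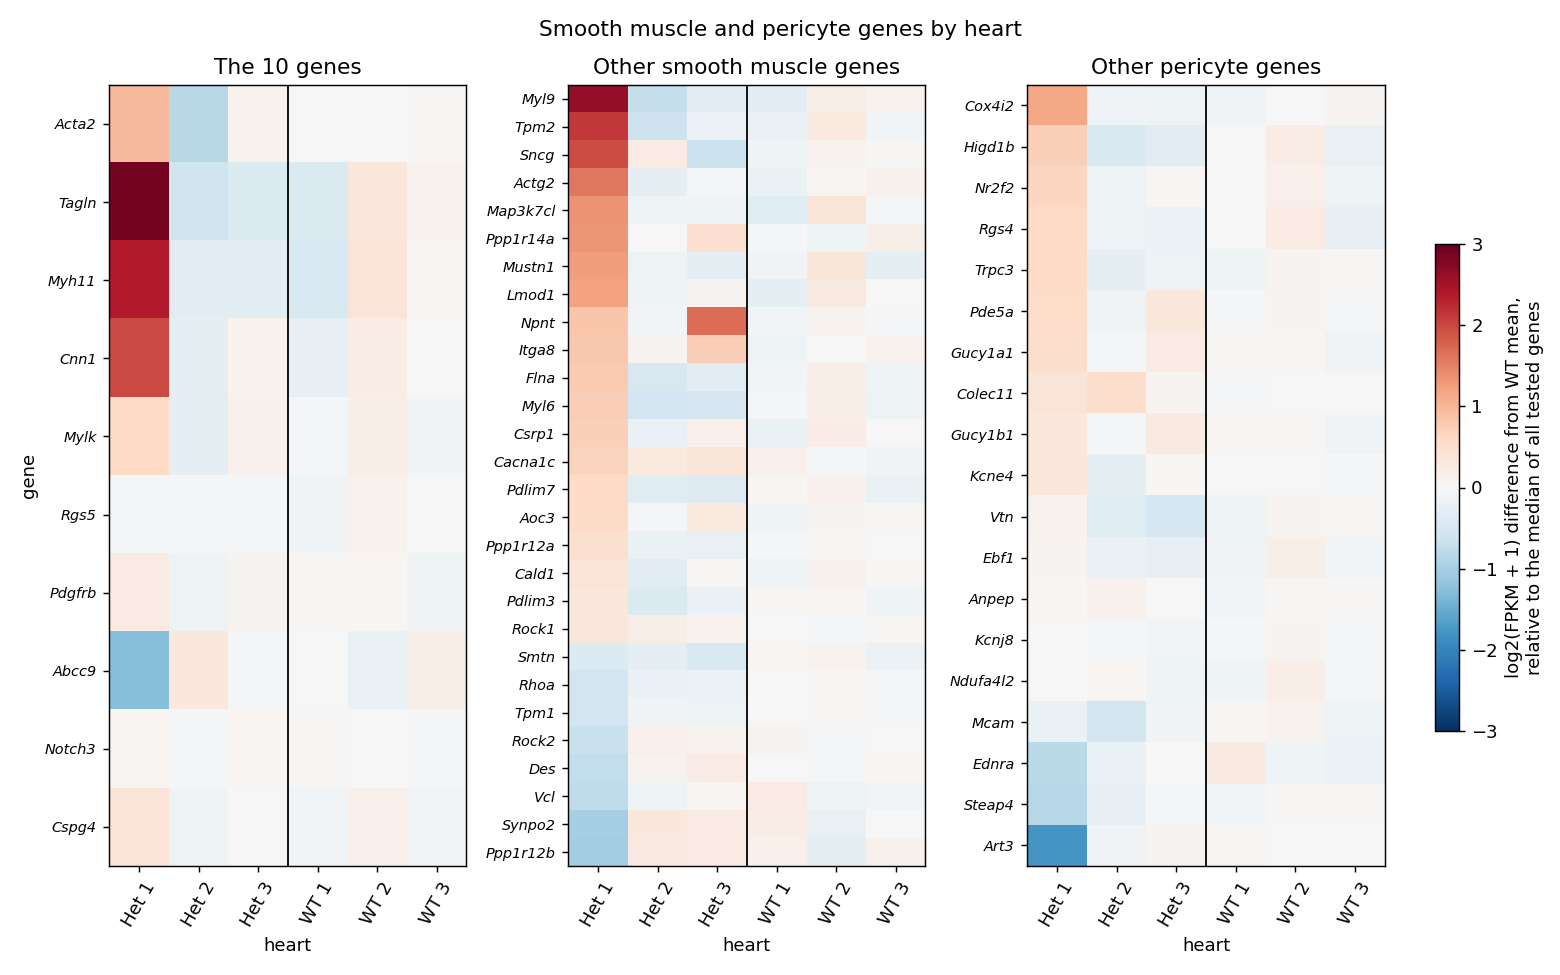
Log2(FPKM + 1) minus the WT mean and minus the library median over tested genes (colour), for the 10 genes, 28 other smooth muscle genes and 19 other pericyte genes (rows) in the 6 hearts (columns, Het left of the line, WT right). Het 1 holds the strong colours, at 2.87 for Tagln, 2.37 for Myh11 and −1.27 for Abcc9, and Npnt is highest in Het 3.

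Other pericyte genes were close to the median gene in most hearts. Of 20 listed for this purpose 19 were in the table and 17 were tested. Of these, 0 were called (0.018% of all tested genes were) and 1 had an unadjusted p under 0.05 (3.88% did). Of the 17, 4 (Vtn, Ebf1, Steap4 and Kcnj8) were lower in every Het heart, against 15.6% of all tested genes, and 0 were higher. The median log2 fold change was −0.20, against −0.18 over all tested genes. Vtn, which encodes the matrix protein vitronectin, was at 12.03, 11.7 and 10.2 FPKM in Het 1, 2 and 3, against 14.3, 16.5 and 16.2 FPKM in WT 1, 2 and 3. In limma's test its p was 0.0459 before and 0.753 after adjustment. Hepatocytes make vitronectin as well, and hepatocyte markers were lower in all Het hearts than in all WT hearts, and their part in the Vtn values was not tested. Ebf1, a transcription factor of pericytes and B cells, averaged 1.14 ± 0.119 FPKM in Het and 1.64 ± 0.254 FPKM in WT (SD, n = 3 each). Mcam, the adhesion molecule CD146, averaged 11.8 ± 2.54 FPKM in Het and 16.4 ± 1.499 FPKM in WT (SD, n = 3 each). Steap4, a metalloreductase, measured 3.42, 8.05 and 9.23 FPKM in Het 1, 2 and 3, against 9.46, 10.001 and 10.2 FPKM in WT 1, 2 and 3. None of these passed, with an adjusted p of 0.753 each. Art3, an ADP-ribosyltransferase gene, was low in Het 1 as Abcc9 was, with 15.1, 68.3 and 77.0 FPKM in Het 1, 2 and 3, against 77.1, 72.8 and 74.3 FPKM in WT 1, 2 and 3, and was chosen after its values were seen. Het 1 was highest for 4 of the 17 (18.1% of all tested genes were) and lowest for 10 (65.1% were). Relative to all genes, Art3 alone of the 17 was at least 2-fold below the WT mean in Het 1 (8.17% of all tested genes were). Cox4i2, also chosen after its values were seen, was the 1 gene at least 2-fold above it (8.92% were). Cox4i2 measured 10.7, 5.54 and 5.26 FPKM in Het 1, 2 and 3, against 5.78, 6.11 and 6.63 FPKM in WT 1, 2 and 3.

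The transcription factors that control smooth muscle genes were not called either. Of 21 listed 19 were in the table and 16 were tested. Of the 16, 0 were called (0.018% of all tested genes were) and 1, Klf4, had an unadjusted p under 0.05 (3.88% did). Klf4 represses contractile genes in vascular smooth muscle and is also an early response gene of many cells. It was the 1 of the 16 lower in every Het heart, against 15.6% of all tested genes, and 0 were higher. Klf4 averaged 14.9 ± 1.73 FPKM in Het and 26.7 ± 1.602 FPKM in WT (SD, n = 3 each). For Klf4 the log2 fold change was −0.80 (SE 0.19, adjusted p 0.753 in limma's test). Klf4 measured 16.7, 14.7 and 13.3 FPKM in Het 1, 2 and 3, or −0.19, −0.79 and −0.91 from the WT mean on the relative log2 scale, so Het 1 was nearer to WT than Het 2 and Het 3 there. Srf, which encodes serum response factor, stood at 4.70, 21.7 and 24.3 FPKM in Het 1, 2 and 3, against 23.8, 20.7 and 26.1 FPKM in WT 1, 2 and 3. Myocd, its smooth and cardiac muscle coactivator, stood at 1.14, 7.66 and 5.49 FPKM in Het 1, 2 and 3, against 4.95, 3.95 and 6.44 FPKM in WT 1, 2 and 3. Both were lowest in Het 1, as were 9 of the 16 tested regulators and 65.1% of all tested genes. On the relative log2 scale Srf was at −1.65 and Myocd at −1.04 in Het 1. These were the 2 of the 16 at least 2-fold below the WT mean there, relative to all genes (8.17% of all tested genes were). Tbx2 was the 1 at least 2-fold above it (8.92% were). Unlike Srf and Myocd, Mrtfa, another coactivator of the myocardin family, was highest in Het 1, at 1.66, 1.41 and 1.27 FPKM in Het 1, 2 and 3, against 1.21, 1.18 and 1.46 FPKM in WT 1, 2 and 3. Myocd and Mrtfa were named for their roles. Cardiomyocytes express Srf and Myocd as well. Elk1, a ternary complex factor that binds serum response factor, averaged 1.82 ± 1.14 FPKM in Het and 2.65 ± 0.208 FPKM in WT (SD, n = 3 each). It was low in Het 1 alone, at 0.511, 2.37 and 2.59 FPKM in Het 1, 2 and 3, against 2.47 to 2.88 FPKM in WT. Tbx2, a T-box repressor, averaged 3.37 ± 1.195 FPKM in Het and 2.38 ± 0.440 FPKM in WT (SD, n = 3 each).

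The signals that act on Pdgfrb and Notch3 showed no call. Of 12 PDGF pathway genes that the table lists, 11 were tested. Of the 11, 0 were called (0.018% of all tested genes were) and 0 had an unadjusted p under 0.05 (3.88% did). Pdgfb, the endothelial ligand of PDGFRB, was at 12.9, 10.8 and 11.5 FPKM in Het 1, 2 and 3, against 12.4, 17.4 and 12.5 FPKM in WT 1, 2 and 3, so the groups overlapped. Pdgfb was named for its role and not by its p. Smallest in p were Plcg1, a phospholipase that PDGFRB activates, at 12.5 ± 2.79 FPKM in Het and 9.84 ± 1.13 FPKM in WT (SD, n = 3 each), and Pik3r1, Shc1 and Grb2, adaptors that bind the activated receptor. Pik3r1 was low in Het 1 alone, with 2.99 FPKM there, against 15.4 to 20.3 FPKM in the rest, and so was Grb2, with 6.03 FPKM there, against 18.2 to 21.6 FPKM in the rest. Shc1 averaged 4.53 ± 1.05 FPKM in Het and 5.36 ± 0.165 FPKM in WT (SD, n = 3 each).

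Of 22 Notch pathway genes 20 were tested. Of the 20, 0 were called (0.018% of all tested genes were) and 0 had an unadjusted p under 0.05 (3.88% did). The coactivator gene Maml1 was the 1 of the 20 lower in every Het heart, against 15.6% of all tested genes. Maml1 averaged 2.40 ± 0.551 FPKM in Het and 3.26 ± 0.138 FPKM in WT (SD, n = 3 each). Heyl, a transcription factor gene that NOTCH3 switches on in mural cells, stood at 3.57, 3.71 and 5.90 FPKM in Het 1, 2 and 3, against 5.28, 6.32 and 4.10 FPKM in WT 1, 2 and 3. Dll4, an endothelial Notch ligand, averaged 6.15 ± 0.0370 FPKM in Het and 5.34 ± 1.19 FPKM in WT (SD, n = 3 each). Ncstn, a subunit of the protease that releases the active Notch fragment, averaged 9.83 ± 3.96 FPKM in Het and 12.1 ± 0.643 FPKM in WT (SD, n = 3 each). Ncstn was low in Het 1 alone, at 5.26, 12.3 and 11.9 FPKM in Het 1, 2 and 3. Groups overlapped for Heyl, Dll4 and Ncstn, which like Maml1 were not called.

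Marker levels of other cells differed between the hearts as well, and their part in the values above was not tested. Of all tested genes, 18.1% were highest and 65.1% lowest in Het 1. The 5 smooth muscle genes summed to 133.5, 37.4 and 65.5 FPKM in Het 1, 2 and 3, against 62.9, 68.2 and 67.5 FPKM in WT 1, 2 and 3. Most of that is Acta2, and without it the sum was 56.7, 8.28 and 9.93 in Het 1, 2 and 3, against 9.20, 16.2 and 12.9 in WT 1, 2 and 3. The 5 pericyte genes summed to 108.4, 170.4 and 163.2 FPKM in Het, against 166.6, 174.9 and 174.5 FPKM in WT, and without Abcc9 to 98.1, 125.3 and 129.0 in Het, against 129.5, 143.6 and 132.9 in WT. With or without Acta2 and Abcc9, Het 1 was highest for the contractile sum and lowest for the pericyte sum. Most of the pericyte sum is Rgs5, at 78.9 FPKM in Het 1, and the sums do not have the shift of the median gene removed. On the relative log2 scale the median of the 5 pericyte genes in Het 1 was 0.06, or 0.15 without Abcc9. They thus lay near the median gene, while the median of the 5 smooth muscle genes was 1.97. The 12 cardiomyocyte markers summed to 8359, 16928 and 16648 FPKM in Het 1, 2 and 3, against 18649 to 20941 FPKM in WT, and 10 of the 12 were lowest in Het 1. The 12 fibroblast markers, 9 of them lowest in Het 1, summed to 319.6, 539 and 569 FPKM in Het, against 539 to 618 FPKM in WT. The 15 endothelial markers summed to 542, 375 and 415 FPKM in Het 1, 2 and 3, against 377 to 452 FPKM in WT, and 7 were highest and 4 lowest in Het 1. The 8 blood markers summed to 5718, 2413 and 685 FPKM in Het 1, 2 and 3, against 1013 to 1402 FPKM in WT, and all 7 tested were highest in Het 1 and lowest in Het 3. The 9 macrophage markers in the table summed to 149, 162 and 258 FPKM in Het, against 133 to 150 FPKM in WT.

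**Figure D4:**
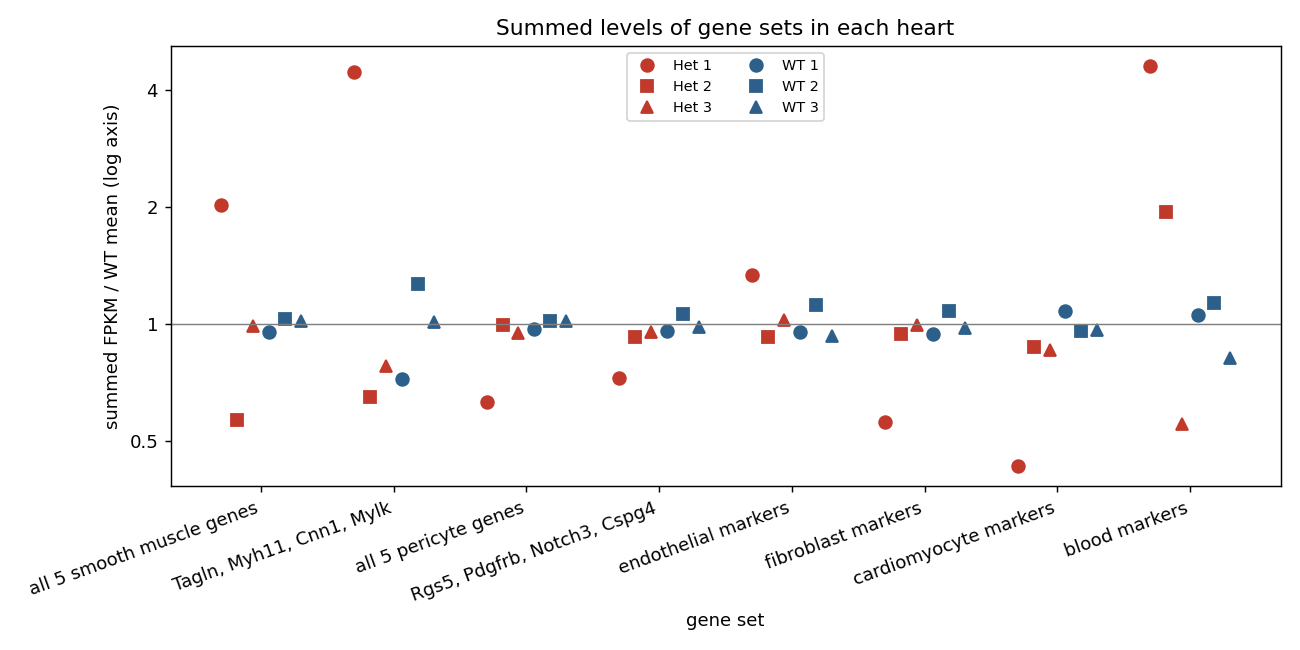
Summed FPKM of 8 gene sets in each heart, divided by the mean of the 3 WT hearts (vertical log axis), with Het in red left of WT in blue. Het 1 is at 2.02 for all 5 smooth muscle genes, 4.45 without Acta2 and 4.60 for blood markers, but at 0.630 for all 5 pericyte genes, 0.725 without Abcc9 and 0.430 for cardiomyocyte markers. The shift of the median gene of Het 1 is not removed from these ratios.

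Transcripts typical of other organs were present in some hearts. The 14 lung epithelial markers summed to 30.2, 59.0 and 974 FPKM in Het 1, 2 and 3, against 64.4 to 70.2 FPKM in WT. Of the 14, 9, 8 and 0 were at 0 in Het 1, 2 and 3, against 6, 7 and 7 in WT 1, 2 and 3. Outside Het 3 nearly all of that sum is Hopx and Cbr2, and without them, a choice made after the values were seen, it was 0.662, 0.522 and 836 FPKM in Het 1, 2 and 3, against 0.638 to 0.783 FPKM in WT. In Het 3, where they were high, Acta2 was at 1.04 times, Tagln at 0.664 times and Myh11 at 0.689 times the WT mean. Npnt, the nephronectin gene on the contractile list, measured 2.40 FPKM in Het 3 and no more than 0.417 FPKM in any other heart, and was chosen after its values were seen. The 11 hepatocyte markers in the table summed to 5.83, 52.7 and 13.3 FPKM in Het, against 136 to 193 FPKM in WT, and 5 were at 0 in each of Het 1 and Het 3. The 2 atrial markers in the table summed to 230.5, 57.5 and 99.1 FPKM in Het, against 110.8, 381 and 226 FPKM in WT. The 6 listed adipocyte, Schwann cell and epicardial markers summed to 3.85 to 4.54 FPKM in Het and to 3.26 to 6.98 FPKM in WT. Short transcripts differed in level as well, and their part in the values above was not tested. For the 1053 tested genes of at most 1000 bases, which include Sncg and Ppp1r14a, the median relative log2 differences were 0.26, −0.11 and −0.20 in Het 1, 2 and 3. In the 4 longer classes, which include the 10 genes, they lay between −0.04 and 0.01 in Het 1.

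Genes outside the list whose profile was most like that of the 10 genes as a group were sought by the smallest root mean square difference over the 6 hearts from their median profile, on the log2 scale. They were Traf7, Arglu1, Sra1, Gpn2 and Igip, with differences of 0.0391 to 0.0485. None of them is among the smooth muscle or pericyte genes listed here. Traf7, a ubiquitin ligase gene, varied little over the hearts, with 6.38, 5.20 and 5.95 FPKM in Het 1, 2 and 3, against 6.17, 6.52 and 6.02 FPKM in WT 1, 2 and 3. Against the profile of Tagln, Myh11 and Cnn1, a choice made after their values were seen, the nearest were Gm28438, Tpm2, mt-Nd3, Myl9 and Gm7331, with differences of 0.2001 to 0.228. Tpm2 and Myl9 are contractile genes, and mt-Nd3 is a mitochondrial gene that measured 2888 FPKM in Het 1, against 829 to 1113 FPKM in the rest.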

How the data were processed

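Poly(A) RNA of 6 hearts was measured, 3 Het and 3 WT, grouped by the samples' titles. Per the labels' protocols the libraries were made with dUTP second strands. Per the submitters' processing notes, StringTie 1.3.4d, HISAT2 2.0.4 and cutadapt 1.9 were used, DESeq2 and edgeR are also named, and the build was mm10; the role of each is not given. The deposited table holds FPKM for 14956 genes and no read numbers, so depth is unknown and no counting interval is given. FPKM as the unit was concluded from the range of the deposited values and the use of StringTie. Beside them stand the authors' fold change (a ratio), log2 fold change, p-value, q-value and −log10 p, per the file headers. Recomputing showed the deposited log2 fold to be that of mean FPKM. The smallest sum over the 6 libraries was 0.502 FPKM.

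A mean of 1 FPKM or more was required, and these genes were tested on log2(FPKM + 1) with limma 3.58.1 in R 4.3.3 (eBayes with trend and robust variance), with Benjamini-Hochberg adjustment over 11096 genes and a threshold of 0.05. This scale understates changes near or below 1 FPKM. Each p-value sets the difference between groups against a variance estimated from these libraries, Het 1 among them. The fit was tested on simulated data with 200 changed genes, drawn gene by gene with a spread shared by both groups. No simulated library stood apart as Het 1 does, so the simulation cannot show how such a library affects the calls. The 10 genes and the lists were chosen with earlier results of these data known. The rule for named genes took all 10, Otub1 and up to 4 tested genes of each list by smallest p. Alternatives were another pseudocount, other filters, 3 scalings, library weights, the replicate number as a block and leaving out each library. Coordinates come from GENCODE M21 (GRCm38), promoters from RefSeq (GRCm38.p6). Figures were drawn with matplotlib 3.10.9.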

Additional observations from a re-analysis of the deposited data

How the results depend on the processing

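None of the 9 tested smooth muscle and pericyte genes was called under any of the 14 alternatives, where their adjusted p lay between 0.404 and 0.990. Directions were less firm, with 21 of 124 values of these genes changed in sign. Median-ratio scaling gave log2 fold changes of 0.12 for Acta2, 0.089 for Pdgfrb, 0.031 for Notch3, 0.065 for Cspg4 and 0.15 for Mylk, and quantile normalization gave 0.21, 0.090, 0.021, 0.054 and 0.14 for the same genes, with 0.081 for Rgs5. They put the median gene at −0.02 and −0.01, against −0.18 in the deposited FPKM. Scaling without mitochondrial genes gave 0.0065 for Mylk. Library weights, 0.0486 for Het 1 and 1.51 to 2.55 for the others, gave −0.42 for Tagln, −0.26 for Myh11 and 0.064 for Abcc9. Leaving out single libraries gave −0.40 to 0.28 for Acta2, −0.53 to 0.98 for Tagln, −0.36 to 0.79 for Myh11, −0.91 to 0.10 for Abcc9, −0.10 to 0.12 for Mylk, −0.83 to 0.015 for Grb2 and −0.54 to 0.0053 for Ncstn. The lowest value of Tagln and Myh11 and the highest of Abcc9, Grb2 and Ncstn were those without Het 1, and the highest of Acta2, Tagln and Mylk those without Het 2.

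Over all genes, 2 calls became 1 with the replicate block, median-ratio scaling or quantile normalization and 22 with library weights, and 1 to 38 with single libraries left out; the cause was not tested. Klf4 passed with library weights only (adjusted p 0.0194). The sample titles give only a replicate number and name no pairing. Same-numbered deviations correlated at −0.20, −0.43 and 0.21, and differently numbered ones at −0.39 to 0.51. These few correlations cannot decide whether same-numbered hearts were paired, so the block is given only as an alternative. With 3 hearts a group, 1 of them far from the rest, intervals of Tagln and Myh11 span more than 1 in either direction on the log2 scale. Cnn1 and the low list genes lie under 1 FPKM, where the number of reads behind a value is unknown.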
